A study of Mus musculus with 8 samples.

Results

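The regions described here are the 200 kb stretches of the mouse genome that held the most accessible chromatin sites in regulatory T (Treg) cells. Each site on chromosomes 1 to 19 was assigned to a fixed 200 kb bin by its start, and bins with 40 or more sites were kept. These dense bins numbered 140 of the 6914 bins that held a site (2.02%). They contained 7008 sites, of which 130 were wider than 800 bp and were left out. The remaining 6878 sites are the members, from a table of 79758 sites, and they make up 9.17% of autosomal sites of up to 800 bp. The choice used the positions of sites. A site had to be detected as a peak to be counted, so the choice depends on accessibility through the peaks. Which libraries gave the peaks is not stated. Whether the choice favours sites that are open in one group was not tested.

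Accessible sites mark stretches of DNA that are free enough of nucleosomes to be cut by a transposase, and most lie at promoters, enhancers and insulators. Regulatory elements are spread unevenly, and many genes that define a cell's identity sit in domains with long arrays of enhancers, often called super-enhancers or regulatory hubs. Elements of one domain frequently contact the same promoter inside a topologically associating domain, so they can open or close together when the gene is switched, but single elements of a domain can also respond to different factors. In Treg cells such arrays are known around genes for surface receptors, signalling regulators and transcription factors of the naive and the activated state. No gene was assigned to any bin, since the annotation used here is not of build mm9, on which the bins are named by position.

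ATAC-seq, in which a transposase inserts sequencing adapters into open chromatin, was run on Treg cells sorted from spleen and lymph nodes of mixed bone marrow chimeras. The 4 groups, each of 2 libraries, were eTreg cells deficient in Pggt1b, WT eTreg cells, cTreg cells deficient in Pggt1b and WT cTreg cells. Effector (eTreg) and central (cTreg) cells are the activated and the resting subset of Treg cells, and the Pggt1b gene makes the catalytic subunit of GGTase-I, an enzyme that attaches a geranylgeranyl lipid to small GTPases. The labels do not give the allele, the Cre driver, the age of the animals or the sorting markers, nor whether both libraries of a group stem from different chimeras. P-values therefore reflect how these libraries vary, possibly for technical reasons alone. All 4 groups came from mixed chimeras, in which bone marrow of more than one donor develops in the same host.

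Library totals ran from 1664702 to 14974253 counts, and both Pggt1b-deficient eTreg libraries were the shallowest. A member site had a median of 7 and 6 counts in the Pggt1b-deficient eTreg libraries, against 26 to 44 in the other libraries. In those shallow libraries 12.8% and 16.8% of member sites had no count, compared with 0.407% to 1.51% elsewhere. Of the 6878 members, 6488 (94.3%) had enough counts to be tested singly. Summed over their sites, all 140 bins were tested.

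The dense bins held 40 to 85 sites each, with a median of 48, while the median over all bins with a site was 8. They were found on all 19 autosomes, most often on chromosome 16, where 12 bins (4.43% of its bins with a site) qualified. They were least frequent on chromosome 19, with 1 bin. Their 2 neighbouring bins held a median of 14 sites, and 6 pairs of dense bins lay side by side. No run was longer than 2 bins.

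Single sites in dense bins were close to those elsewhere in width and strength, as medians with no test. Their median width was 97 bp, against 102 bp in bins with 10 to 39 sites and 92 bp in bins with 1 to 9 sites. Median accessibility over all libraries was 3.32 CPM in dense bins, 3.57 CPM in bins with 10 to 39 sites and 2.99 CPM in bins with 1 to 9 sites. CPM are counts scaled to the library total after its adjustment by a TMM factor, edgeR's scaling between libraries. The median gap to the next site, which the choice of bins fixes in part, was 988 bp, against 2162 bp and 5966 bp. Within a dense bin the signal was uneven: the strongest 25% of its sites held a median of 73.5% of its counts, with a range over bins of 57.3% to 83.8%.

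Dense bins held a smaller share of all counts in eTreg than in cTreg cells of either genotype. Member sites held 5.53% and 5.73% of all counts in the Pggt1b-deficient eTreg libraries and 5.36% and 5.41% in the WT eTreg libraries. The share was 6.38% and 6.28% in Pggt1b-deficient cTreg libraries and 6.29% and 6.18% in WT cTreg libraries. All 4 eTreg libraries lay below all 4 cTreg libraries, and the mean difference was -0.78 percentage points. Bins with 10 to 39 sites also held a smaller share in eTreg libraries, 49.7% to 50.6% against 51.4% to 52.1% in cTreg libraries. Bins with 1 to 9 sites held a larger one, 13.91% to 14.91% against 13.35% to 13.8%. Per 100 counts in bins with 10 to 39 sites, member sites had 10.7 to 11.4 counts in the eTreg libraries and 12.0 to 12.3 in the cTreg libraries, so the gap was also present against moderately dense bins. Between Pggt1b-deficient and WT libraries the share at member sites differed by 0.17 points over both subsets. It differed by 0.018 to 0.329 points with any one library left out. Within eTreg cells both Pggt1b-deficient libraries lay above both WT libraries, by 0.245 points on average. Within cTreg cells the genotypes overlapped, with a mean difference of 0.092 points.

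**Figure D1:**
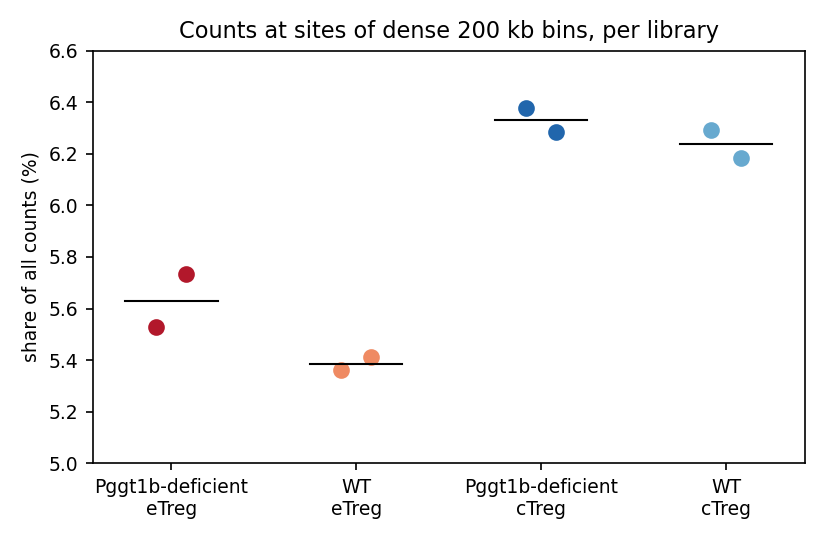
Share of all counts of a library (percent, axis not starting at 0) that lies at sites of dense 200 kb bins, by group. Points are single libraries and lines are group means (n = 2 libraries each); the 4 eTreg libraries lie between 5.36% and 5.73%, below the 4 cTreg libraries at 6.18% to 6.38%.

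Counts were then summed per bin and compared by edgeR's quasi-likelihood test, with a bin called at a Benjamini-Hochberg adjusted p under 0.05 over all 6817 bins tested. Between WT eTreg and WT cTreg cells, 88 of the 140 dense bins were called, 17 higher and 71 lower in eTreg. Over all bins 53.5% were called, 33.2% higher and 20.4% lower. Of the dense bins 62.9% were called: 12.1% rose and 50.7% fell, so they leaned to the lower side while all bins leaned to the higher side. The share of bins that fell was 25.5% in bins with 10 to 39 sites and 15.1% in bins with 1 to 9 sites, and the share that rose ran the other way, at 32.1% and 34.8%. Dense bins sum the counts of more sites than other bins, so the shares of bins called are not on an equal footing. The median log2 fold change of the summed counts was -0.12 in dense bins and 0.10 in all bins. The called dense bins did not overlap between the WT eTreg and WT cTreg libraries. Called or not, this held for 114 of the 140 dense bins and 2434 of 2993 bins with 10 to 39 sites. The number of dense bins that rose was 10 without the second WT cTreg library and 11 without the first WT eTreg library.

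Differences were modest for most dense bins. The median absolute log2 fold change of the called bins was 0.30, the smallest called was 0.11, and a single bin exceeded 1. In the 71 bins that fell in WT eTreg cells, median summed accessibility was 384 CPM in Pggt1b-deficient eTreg cells, 333 CPM in WT eTreg cells, 467 CPM in Pggt1b-deficient cTreg cells and 453 CPM in WT cTreg cells. In the 17 bins that rose it was 456 CPM in both eTreg groups, 422 CPM in Pggt1b-deficient cTreg cells and 390 CPM in WT cTreg cells. Both sets of bins were chosen by their WT libraries. How the Pggt1b-deficient groups lie relative to the WT groups is therefore fixed in part by that choice.

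**Figure D2:**
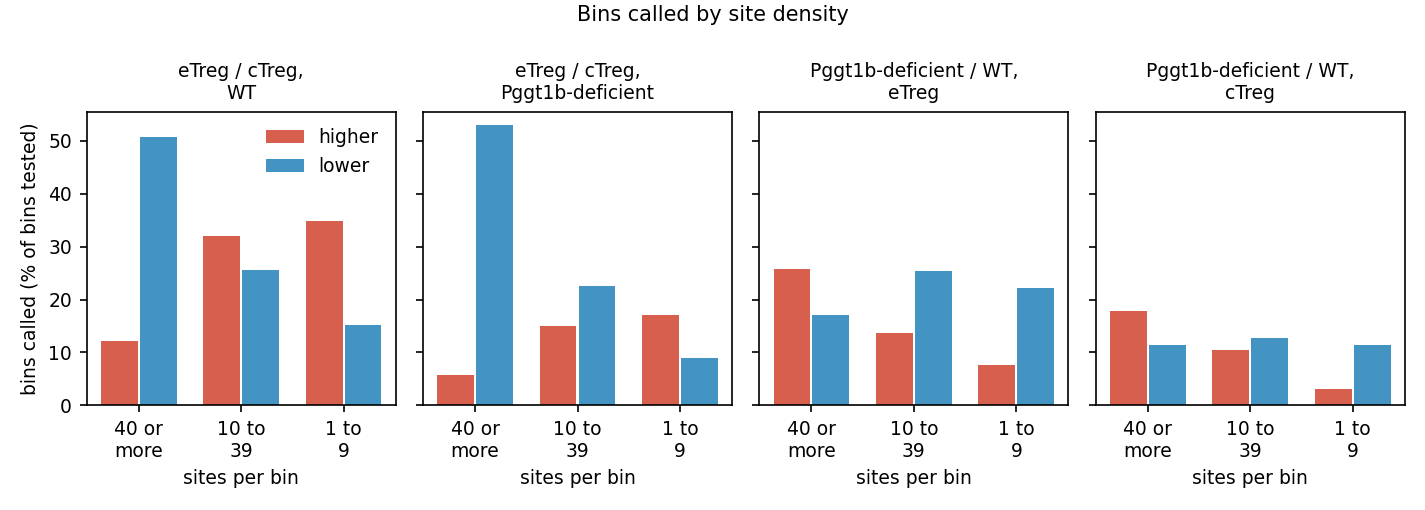
Percentage of tested bins called higher (red) or lower (blue) by edgeR in 4 comparisons, for bins with 40 or more, 10 to 39 and 1 to 9 sites. For eTreg against cTreg cells the share that fell is largest in dense bins, at 50.7% in WT and 52.9% in Pggt1b-deficient cells.

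The same lean was seen at single sites. Among the member sites tested, 1980 were called between WT eTreg and WT cTreg cells, 499 higher and 1481 lower, against 28.7% of all sites called, 13.8% higher and 14.9% lower. That is 30.5% of member sites tested, 7.69% higher and 22.8% lower. In bins with 10 to 39 sites 12.2% of sites were higher and 15.1% lower, a weaker lean to the same side. The count of called member sites was 1219 and 1162 without the first or second WT cTreg library, and 1179 without the second WT eTreg library, with lower sites outnumbering higher ones each time. Narrow and wide sites showed the same lean. Of sites up to 100 bp, 3.98% were higher and 16.2% lower in dense bins, against 13.2% and 9.21% in bins with 1 to 9 sites. Bins with 10 to 39 sites lay between, at 7.94% and 11.4%. Among sites over 300 bp wide, 15.5% were higher and 30.3% lower in dense bins, and 33.1% were higher and 12.4% lower in bins with 1 to 9 sites. Bins with 10 to 39 sites again lay between, at 21.6% higher and 17.1% lower. In the strongest 25% of sites of each dense bin 12.1% were higher and 30.2% lower, and in the weakest 25% 4.45% were higher and 12.3% lower.

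The largest change of any dense bin was at chr17:51800000-51999999, a bin of 48 sites. Its summed accessibility was 196 and 167 CPM in Pggt1b-deficient eTreg cells, 89.1 and 82.3 CPM in WT eTreg cells, 321 and 285 CPM in Pggt1b-deficient cTreg cells and 246 and 264 CPM in WT cTreg cells. No pair of groups overlapped, and WT eTreg cells were lowest. In WT cells the bin fell in eTreg by a log2 fold change of -1.58 ± 0.07 (standard error; edgeR adjusted p = 2.68e-13), which is 0.335 of the cTreg level. Of its 44 tested sites, 32 were called lower and 0 higher, and 95.5% had a negative fold change.

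The next 4 bins completed the 5 largest falls in WT eTreg cells. The bin chr7:65800000-65999999 had 432 and 420 CPM in Pggt1b-deficient eTreg, 285 and 300 CPM in WT eTreg, 532 and 508 CPM in Pggt1b-deficient cTreg and 512 and 528 CPM in WT cTreg cells. Here 27 of 46 tested sites were lower and 0 higher, and the sum fell by 0.83 ± 0.05 on the log2 scale (edgeR adjusted p = 8.17e-12). At chr4:6800000-6999999 accessibility was 243 and 276 CPM in Pggt1b-deficient eTreg, 262 and 256 CPM in WT eTreg, 449 and 439 CPM in Pggt1b-deficient cTreg and 424 and 445 CPM in WT cTreg cells. Both eTreg groups overlapped each other there and lay below both cTreg groups, with 24 sites lower and 2 higher and a log2 fold change of -0.75 ± 0.05 in WT cells (edgeR adjusted p = 1.37e-10). The bin chr16:76200000-76399999 fell by 0.65 ± 0.06 and chr6:99200000-99399999 by 0.64 ± 0.05 on the log2 scale, with 28 and 30 sites lower against 3 and 1 higher.

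Rises of dense bins were smaller. The largest was at chr10:39000000-39199999, with 226 and 245 CPM in Pggt1b-deficient eTreg, 307 and 325 CPM in WT eTreg, 212 and 218 CPM in Pggt1b-deficient cTreg and 240 and 231 CPM in WT cTreg cells. WT eTreg cells stood above the other 3 groups, and the bin rose by 0.42 ± 0.05 on the log2 scale (edgeR adjusted p = 1.01e-06). Its 13 sites called higher were mostly in the second part of the bin, 11 of them between 135.6 and 199.4 kb from its start, and 1 site was lower. A site in that stretch, chr10:39153886-39153997, had 0.897 and 2.37 CPM in Pggt1b-deficient eTreg, 6.95 and 6.65 CPM in WT eTreg, 0.224 and 0.276 CPM in Pggt1b-deficient cTreg and 1.21 and 1.35 CPM in WT cTreg cells. It rose by 2.40 ± 0.39 in WT cells (edgeR adjusted p = 6.5e-06), and the Pggt1b-deficient eTreg values rest on 2 and 4 counts.

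At chr5:112600000-112799999 the eTreg groups stood together: 435 and 431 CPM in Pggt1b-deficient eTreg and 422 and 421 CPM in WT eTreg cells, against 348 and 327 CPM in Pggt1b-deficient cTreg and 341 and 322 CPM in WT cTreg cells. The log2 fold change of eTreg over cTreg was 0.36 ± 0.06 in Pggt1b-deficient cells (edgeR adjusted p = 9.69e-05) and 0.35 ± 0.05 in WT cells (edgeR adjusted p = 5.02e-06). The next 3 rises in WT cells were at chr8:87400000-87599999, chr8:122200000-122399999 and chr2:158400000-158599999, at log2 fold changes of 0.28, 0.27 and 0.26.

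The bins with the most sites all fell in WT eTreg cells. The fullest, chr1:60800000-60999999 with 85 sites, had 752 and 780 CPM in Pggt1b-deficient eTreg, 656 and 633 CPM in WT eTreg, 965 and 924 CPM in Pggt1b-deficient cTreg and 907 and 915 CPM in WT cTreg cells. It fell by 0.50 ± 0.04 on the log2 scale in WT cells (edgeR adjusted p = 3.53e-09), with 32 sites lower and 3 higher, and the dense bin next to it fell by 0.55. The bins chr16:52000000-52199999 and chr14:122200000-122399999, each with 78 sites, fell by 0.62 and 0.30, and chr10:96000000-96199999, with 77 sites, fell by 0.61. The chr10 bin had 35 of 73 tested sites lower and 1 higher. The remaining bin of the fullest 5 is the chr16 76.2 Mb bin given above.

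**Figure D3:**
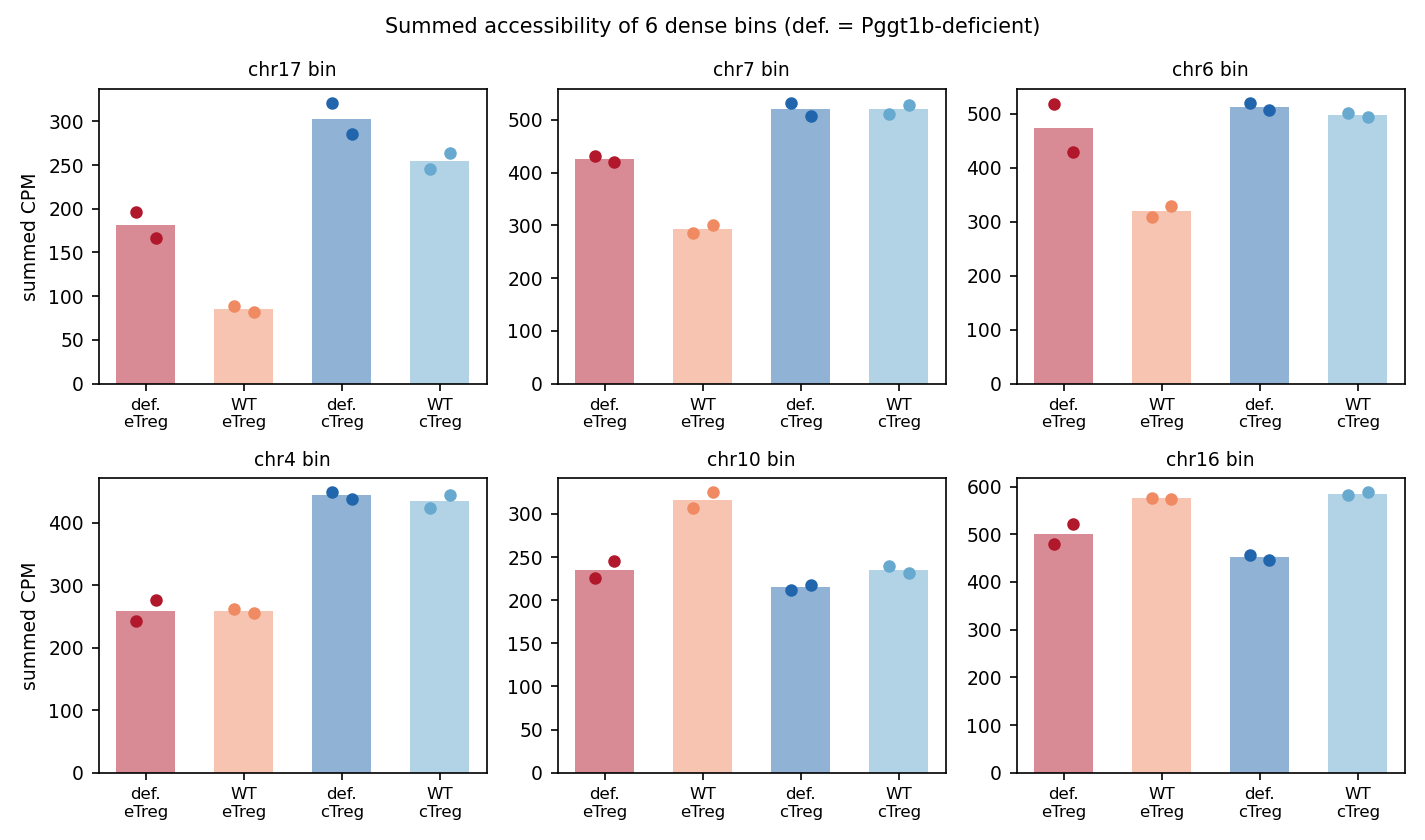
Summed accessibility (CPM of all member sites of a bin) in 6 dense bins, by group: those at chr17 51.8 Mb, chr7 65.8 Mb, chr6 142.8 Mb, chr4 6.8 Mb, chr10 39 Mb and chr16 89.8 Mb. Bars are means and points single libraries (n = 2); the chr17, chr7 and chr6 bins are lowest in WT eTreg, the chr4 bin is low in both eTreg groups, the chr10 bin is highest in WT eTreg, and the chr16 bin is lower in both Pggt1b-deficient groups than in their WT counterparts.

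Most dense bins held sites that changed in both directions. Between WT eTreg and WT cTreg cells, a median of 67.4% of the tested sites of a dense bin shared the sign of the majority, where 50% is the lowest possible. Over all tested member sites 36.2% had a positive fold change, and this lean by itself makes many sites of a bin share a sign. The median was 68.2% in bins with 10 to 39 sites. A bin with fewer sites reaches a large majority more easily, so the 2 medians are not directly comparable. In 26 of the 140 dense bins at least 80% of sites shared one sign. All 140 bins had at least 1 called site and 138 had 4 or more. Of these 138, 105 had mostly lower and 25 mostly higher sites, 8 were tied, and 13 were called in one direction only. The commoner direction held 80.3% of all called sites, where 25.2% of all called member sites were higher and the rest lower. Of the 140 bins, 127 had called sites of both directions.

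Most of the variation between sites lay inside bins. When the WT difference was computed from the first library of each subset and again from the second, the bin means of the 2 library pairs correlated at r = 0.954 over 140 bins, and the deviations of single sites from their bin mean at r = 0.701 over 6488 sites. Both are descriptions over sites that share the same libraries. Of the covariance that the 2 library pairs shared, 17.3% lay between bins and the rest between sites of the same bin. In bins with 10 to 39 sites the share between bins was 27.1%. Sites of the same dense bin thus differed from each other in a way that recurred between the library pairs.

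Neighbouring called sites changed in the same direction more often than distant ones. Among pairs of called member sites of the same bin, 92.9% of pairs up to 1 kb apart (364 pairs) changed in the same direction in WT eTreg against WT cTreg cells. It was 84.3% from 1 to 5 kb, 79.7% from 5 to 20 kb, 76.5% from 20 to 50 kb, 72.3% from 50 to 100 kb and 66.9% from 100 to 200 kb (2770 pairs). In bins with 10 to 39 sites the share also fell with distance, from 96.5% up to 1 kb to 63.9% from 100 to 200 kb. Of all called member sites 25.2% were higher and the rest lower, which by itself makes many pairs agree, so the share for distant pairs does not show that they changed together. Pairs of one bin also share sites and libraries, and these shares carry no test. For Pggt1b-deficient against WT eTreg cells the share was 95.2% up to 1 kb (42 pairs) and 57.4% from 100 to 200 kb (291 pairs), where 60% of called sites were higher. In bins with 10 to 39 sites these shares were 93.3% and 62.5%.

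Some bins whose summed counts were not called held called sites of both directions. One of the most mixed was chr16:89800000-89999999, with 479 and 521 CPM in Pggt1b-deficient eTreg, 576 and 574 CPM in WT eTreg, 457 and 447 CPM in Pggt1b-deficient cTreg and 582 and 588 CPM in WT cTreg cells. In WT cells the log2 fold change of the sum was -0.02 ± 0.05 (edgeR adjusted p = 0.674), while 10 of 42 tested sites were called higher and 10 lower. The directions were separated along the bin in part only. All 10 higher sites lay between 30.0 and 49.4 kb from its start, and 3 lower ones between 18.2 and 38.1 kb, which overlaps that stretch. The other 7 lower sites lay apart, between 138.8 and 194.4 kb.

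One of its higher sites, chr16:89830693-89830914, had 1.79 and 0 CPM in Pggt1b-deficient eTreg, 5.75 and 5.63 CPM in WT eTreg, 0.673 and 0.828 CPM in Pggt1b-deficient cTreg and 1.05 and 1.27 CPM in WT cTreg cells. WT eTreg stood above all other libraries, and the site rose by 2.28 ± 0.43 in WT cells (edgeR adjusted p = 6.36e-05). A lower site, chr16:89972399-89972473, had 2.69 and 1.19 CPM in Pggt1b-deficient eTreg, 0.927 and 0.747 CPM in WT eTreg, 3.36 and 3.04 CPM in Pggt1b-deficient cTreg and 3.95 and 4.67 CPM in WT cTreg cells. It fell by 2.36 ± 0.44 in WT cells (edgeR adjusted p = 5.66e-05), with the WT libraries of the 2 subsets well apart.

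Other mixed bins showed similar contrasts. At chr4:32200000-32399999, 8 sites were higher and 15 lower in WT eTreg cells while the sum changed by 0.02 ± 0.05 (edgeR adjusted p = 0.795), and 13 of the 15 lower sites lay in its second 100 kb. The site chr4:32266941-32267012 had 1.79 and 6.52 CPM in Pggt1b-deficient eTreg, 6.49 and 7.81 CPM in WT eTreg, 1.01 and 1.10 CPM in Pggt1b-deficient cTreg and 1.37 and 1.27 CPM in WT cTreg cells, a rise of 2.43 ± 0.38 in WT cells (edgeR adjusted p = 4.25e-06). At chr4:32394369-32394499, in the same bin, the values were 5.38 and 9.48 CPM, 1.48 and 0.407 CPM, 7.63 and 7.18 CPM and 5.80 and 5.39 CPM in the same order of groups, a fall of 2.65 ± 0.41 (edgeR adjusted p = 2.73e-06). The bin at chr15:66600000-66799999 had 7 sites higher and 7 lower, of which 5 and 6 lay together in its first 100 kb, and chr16:23200000-23399999 had 7 higher and 10 lower while its sum rose by 0.16 ± 0.05 (edgeR adjusted p = 0.0122).

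**Figure D4:**
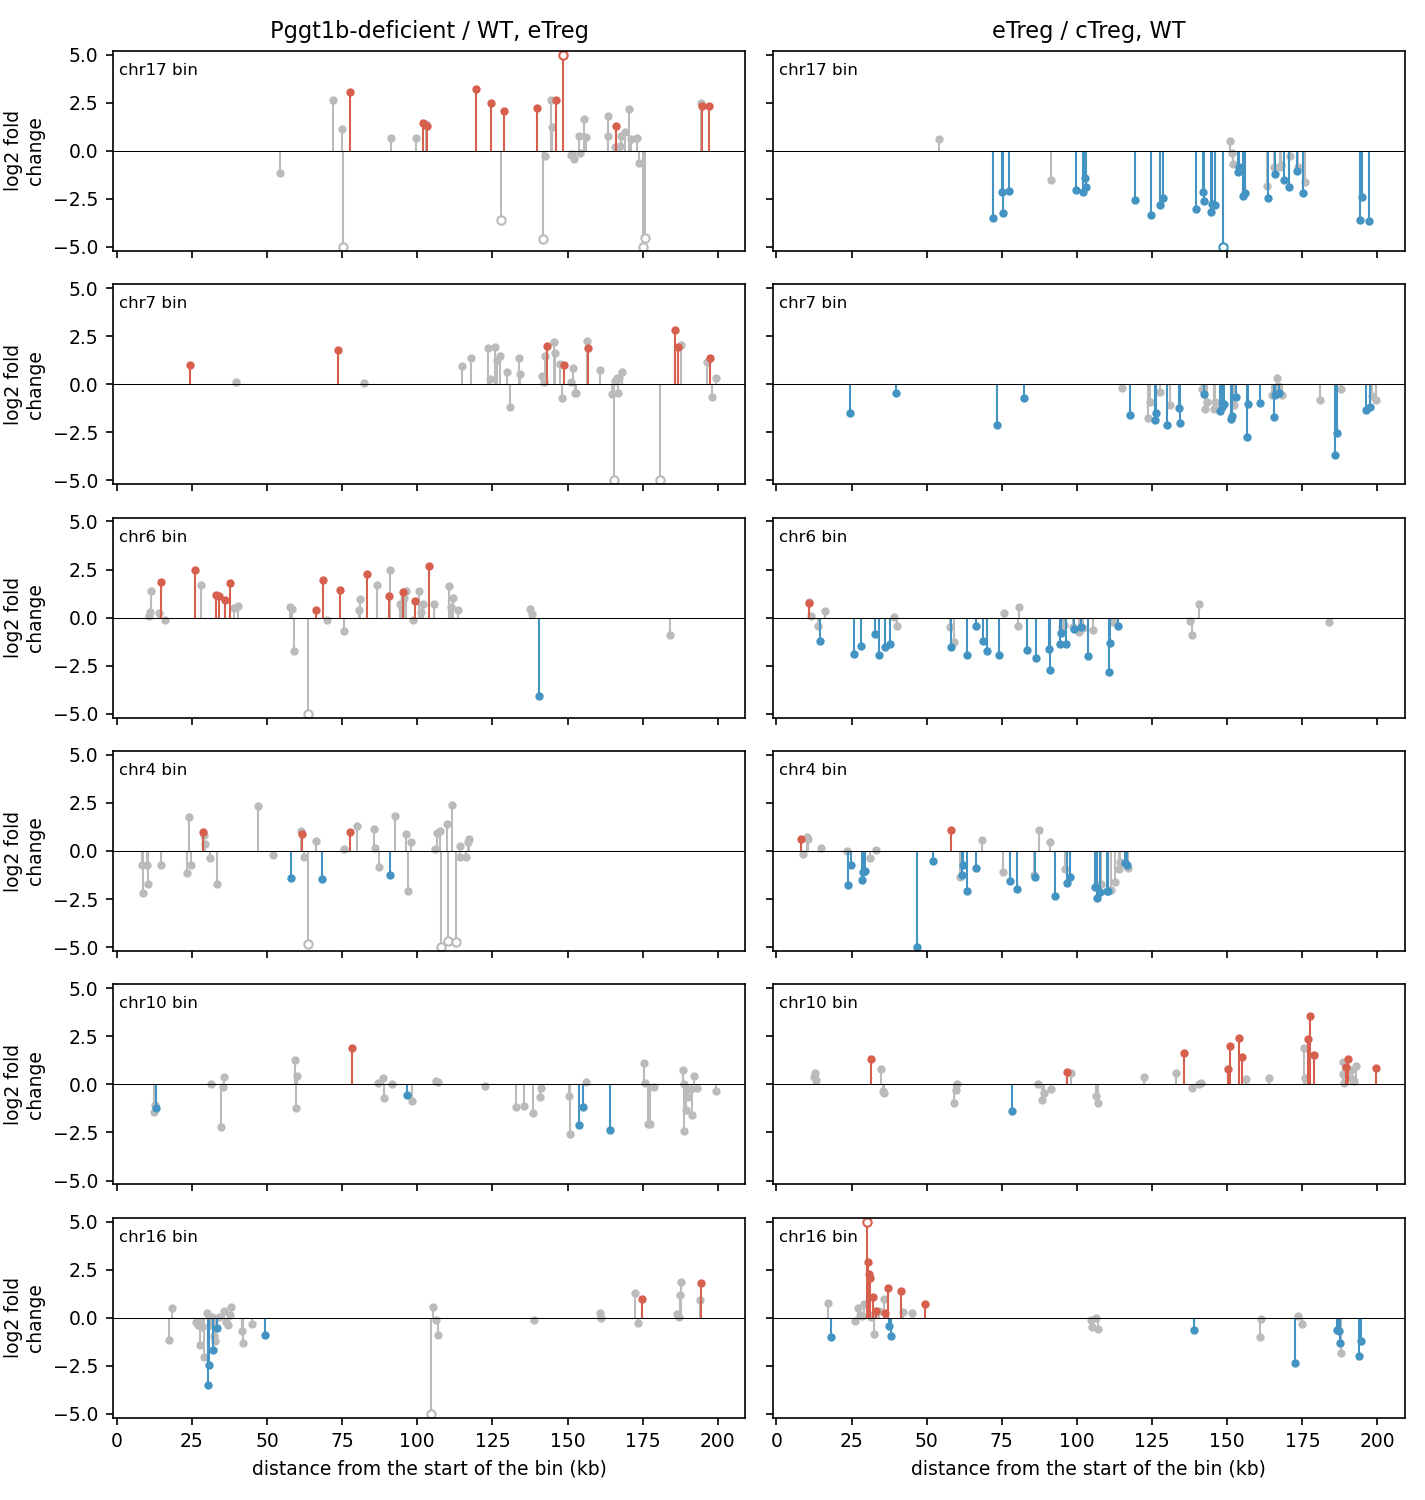
Log2 fold change of each tested site by its distance from the start of its bin (kb) in the 6 bins whose summed levels are plotted by group, for Pggt1b-deficient against WT eTreg cells (left) and eTreg against cTreg in WT cells (right). Red and blue sites were called higher and lower by edgeR, grey sites were not called, open circles mark sites with no count in one of the compared groups, and values beyond 5 are drawn at 5; in the chr16 bin at 89.8 Mb the 10 higher sites of the right panel sit near its start and 7 of the 10 lower ones in its second 100 kb.

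In Pggt1b-deficient cells the eTreg and cTreg subsets differed at dense bins in the same main direction as in WT cells. Of the 140 bins, 82 (58.6%) were called, 8 higher and 74 lower in eTreg, against 31.7% of all bins called, 15.9% higher and 15.8% lower. Bins with 10 to 39 sites also leaned to the lower side, with 15% higher and 22.6% lower. Every called dense bin was separated between the Pggt1b-deficient eTreg and cTreg libraries. Called or not, 115 of the 140 dense bins and 2003 of 2993 bins with 10 to 39 sites were separated. The median log2 fold change was -0.18 in dense bins, -0.04 in bins with 10 to 39 sites and 0.01 in all bins. Single member sites gave 142 higher and 375 lower calls, 517 in all. That is 7.97% of member sites tested, 2.19% higher and 5.78% lower, against 9.12% of all sites called, 4.59% higher and 4.52% lower. In bins with 10 to 39 sites 3.7% of sites were higher and 4.7% lower. The total of 517 was 243 without the first Pggt1b-deficient cTreg library and 250 without the first Pggt1b-deficient eTreg library. With limma-voom it was 84 higher and 96 lower, so the lean of single sites was nearly gone there. The 8 bins called higher were 4 without either Pggt1b-deficient cTreg library and 5 without either WT cTreg library.

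The subset difference in Pggt1b-deficient cells and that in WT cells rest on different libraries and can be set against each other. Across the 140 bins their log2 fold changes correlated at r = 0.705 (Spearman 0.685), with the same sign in 105 bins, as a description of bins that share libraries. In the 2993 bins with 10 to 39 sites it was r = 0.728 (Spearman 0.648), so the agreement was not particular to dense bins. Of the 74 bins that fell in Pggt1b-deficient eTreg cells, 55 (74.3%) also fell in WT eTreg cells, which is 77.5% of the 71 WT falls. Of the 8 that rose, 6 (75%) also rose in WT cells, or 35.3% of the 17 WT rises. Over all 140 dense bins, 50.7% fell and 12.1% rose in WT eTreg cells. One bin was called in opposite directions: the chr16 23.2 Mb bin had 265 and 279 CPM in Pggt1b-deficient eTreg, 357 and 363 CPM in WT eTreg, 321 and 302 CPM in Pggt1b-deficient cTreg and 330 and 315 CPM in WT cTreg cells. It fell by 0.20 in Pggt1b-deficient and rose by 0.16 in WT eTreg cells.

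**Figure D5:**
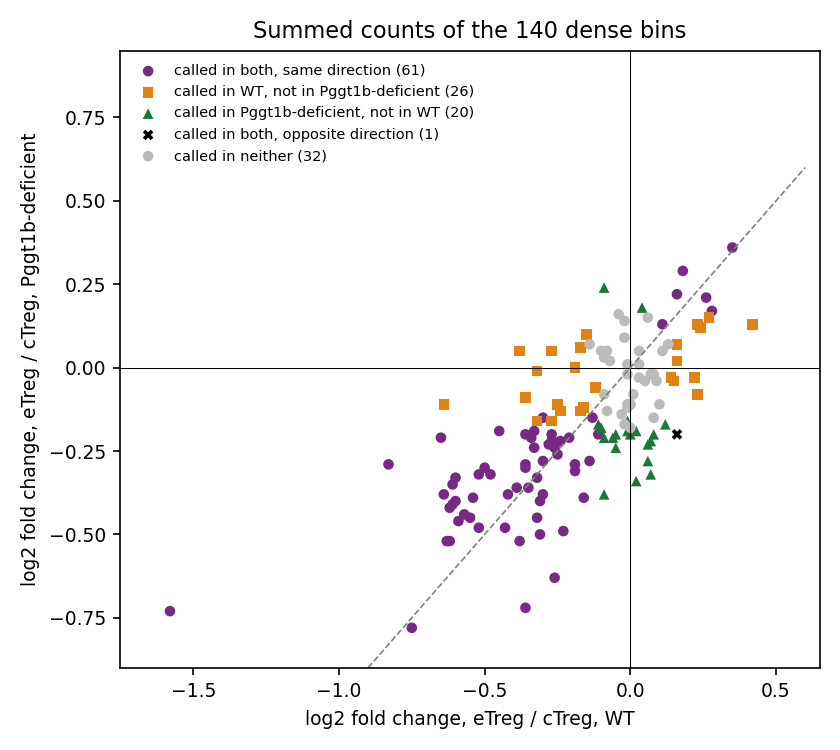
Log2 fold change of summed counts, eTreg over cTreg, in Pggt1b-deficient cells (vertical) and in WT cells (horizontal) for the 140 dense bins, with the dashed line at equal values. Symbols give the edgeR calls; 61 bins were called in both genotypes with the same direction, 26 in WT only, 20 in Pggt1b-deficient cells only, 1 in opposite directions and 32 in neither.

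Some dense bins fell by similar amounts with and without Pggt1b. The chr4 6.8 Mb bin fell by 0.78 ± 0.07 in Pggt1b-deficient and by 0.75 ± 0.05 in WT eTreg cells, and the difference between these effects was -0.04 ± 0.09 (edgeR adjusted p = 0.827 for the interaction). At chr2:18800000-18999999 accessibility was 408 and 420 CPM in Pggt1b-deficient eTreg, 359 and 369 CPM in WT eTreg, 608 and 581 CPM in Pggt1b-deficient cTreg and 568 and 551 CPM in WT cTreg cells. It fell by 0.52 ± 0.06 in Pggt1b-deficient and by 0.62 ± 0.05 in WT eTreg cells, and 13 and 28 of its 57 tested sites were called lower. At chr10:98600000-98799999 the falls were 0.36 ± 0.06 and 0.39 ± 0.05, with 10 and 32 of 50 sites lower. In both of these the interaction had an adjusted p above 0.05 (edgeR, 0.435 and 0.82), which does not show that the effects were equal.

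Pggt1b-deficient eTreg cells were next compared with WT eTreg cells. Of the 140 dense bins 60 were called, 36 higher and 24 lower in Pggt1b-deficient cells, where 34% of all bins were called, 10.6% higher and 23.4% lower. Of the dense bins 42.9% were called, 25.7% higher and 17.1% lower, while all bins leaned to the lower side. All 60 bins were separated between the groups. Called or not, 96 of the 140 dense bins and 1979 of 2993 bins with 10 to 39 sites were separated. The count of called dense bins was 42 to 56 with any one library left out. The lean to the higher side was lost without the second Pggt1b-deficient eTreg library, with 27 higher and 28 lower. It was also lost when the bins were shifted by 100 kb, with 30 higher and 30 lower. With every library thinned to the depth of the smallest, or with only the compared groups in the model, it was 40 higher and 13 lower. Among member sites 410 were higher and 273 lower. That is 10.5% of member sites tested, 6.32% higher and 4.21% lower, against 11.1% of all sites called, 4.66% higher and 6.43% lower. The total of 683 fell to 403 without the first Pggt1b-deficient eTreg library and to 427 and 376 without the first or second WT eTreg library.

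The 3 largest rises were at chr17 51.8 Mb, chr6 142.8 Mb and chr7 65.8 Mb. This comparison shares the WT eTreg libraries with the subset comparison in WT cells, so the values of each bin are placed side by side only. The chr17 51.8 Mb bin, at 196 and 167 CPM in Pggt1b-deficient and 89.1 and 82.3 CPM in WT eTreg cells, was higher by 1.09 ± 0.09 on the log2 scale (edgeR adjusted p = 5.37e-08), with 12 sites higher and 0 lower. Its site chr17:51994700-51994905 had 13.5 and 8.30 CPM in Pggt1b-deficient eTreg, 2.41 and 2.04 CPM in WT eTreg, 19.9 and 20.7 CPM in Pggt1b-deficient cTreg and 12.9 and 10.8 CPM in WT cTreg cells. That site rose by 2.33 ± 0.36 (edgeR adjusted p = 1.47e-05), on 30 and 14 counts in the Pggt1b-deficient eTreg libraries. The site chr17:51901953-51902077 of the same bin had 19.7 and 17.8 CPM in Pggt1b-deficient eTreg and 7.14 and 6.65 CPM in WT eTreg cells, against 40.6 and 33.5 CPM in Pggt1b-deficient cTreg and 27.5 and 32.8 CPM in WT cTreg cells.

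At chr6:142800000-142999999, a bin of 52 sites, accessibility was 518 and 429 CPM in Pggt1b-deficient eTreg, 309 and 330 CPM in WT eTreg, 520 and 507 CPM in Pggt1b-deficient cTreg and 502 and 494 CPM in WT cTreg cells. Only WT eTreg cells stood apart, and the other 3 groups were near one another. The bin was higher by 0.58 ± 0.07 with Pggt1b loss (edgeR adjusted p = 1.3e-06), with 14 sites higher and 1 lower, the largest share of sites called in one direction for this comparison. The exception, chr6:142940410-142940497, had 0.448 and 0 CPM in Pggt1b-deficient eTreg and 4.63 and 4.28 CPM in WT eTreg cells, on 1 and 0 counts in Pggt1b-deficient cells. The chr7 65.8 Mb bin was higher by 0.55 ± 0.06 (edgeR adjusted p = 5.16e-07), with 8 sites higher and 0 lower.

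Its site chr7:65956859-65957017 had 40.8 and 27.3 CPM in Pggt1b-deficient eTreg, 7.51 and 11.0 CPM in WT eTreg, 22.7 and 20.8 CPM in Pggt1b-deficient cTreg and 20.2 and 17.7 CPM in WT cTreg cells. Both Pggt1b-deficient eTreg values were above all other libraries there, and the site rose by 1.88 ± 0.22 (edgeR adjusted p = 1.63e-07). A second site, chr7:65986310-65986936, had 17.0 and 13.0 CPM in Pggt1b-deficient eTreg, 3.71 and 4.34 CPM in WT eTreg, 27.5 and 28.2 CPM in Pggt1b-deficient cTreg and 25.2 and 23.0 CPM in WT cTreg cells. Here the Pggt1b-deficient eTreg libraries lay between the WT eTreg and the cTreg libraries.

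A bin of another kind was chr7:132600000-132799999, with 648 and 564 CPM in Pggt1b-deficient eTreg, 442 and 429 CPM in WT eTreg, 590 and 588 CPM in Pggt1b-deficient cTreg and 457 and 462 CPM in WT cTreg cells. It was higher in Pggt1b-deficient cells of both subsets, by 0.48 ± 0.06 in eTreg (edgeR adjusted p = 1.96e-06) and 0.36 ± 0.05 in cTreg cells (edgeR adjusted p = 9.7e-05), and eTreg against cTreg was not called in either genotype. In cTreg cells 88.9% of its 54 tested sites had a positive fold change, but 3 were called higher and 0 lower. One of those 3, chr7:132704732-132705109, had 48.4 and 45.0 CPM in Pggt1b-deficient eTreg, 27.1 and 18.1 CPM in WT eTreg, 51.1 and 49.0 CPM in Pggt1b-deficient cTreg and 33.0 and 31.7 CPM in WT cTreg cells.

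Among the bins that fell in Pggt1b-deficient eTreg cells was the chr10 39 Mb bin, at 226 and 245 CPM in Pggt1b-deficient and 307 and 325 CPM in WT eTreg cells, a change of -0.43 ± 0.07 in log2 units (edgeR adjusted p = 4.84e-05). The chr16 23.2 Mb bin fell by 0.41 ± 0.06 and chr7:17400000-17599999 by 0.31 ± 0.07. At chr18:68200000-68399999 the values were 280 and 286 CPM in Pggt1b-deficient eTreg, 386 and 391 CPM in WT eTreg, 331 and 329 CPM in Pggt1b-deficient cTreg and 372 and 366 CPM in WT cTreg cells, with Pggt1b-deficient eTreg cells lowest and a fall of 0.46 ± 0.06 in eTreg cells (edgeR adjusted p = 4.44e-06). A fall of 0.46 ± 0.10 at chr17:12800000-12999999 rests on 1 library: Pggt1b-deficient eTreg cells had 147 and 222 CPM and WT eTreg cells 247 and 251 CPM. Without the first Pggt1b-deficient eTreg library the log2 fold change was -0.18 and not called, and DESeq2 did not call the bin either.

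In cTreg cells, Pggt1b-deficient and WT libraries were compared in the same way. Of the dense bins 41 (29.3%) were called, 25 higher and 16 lower in Pggt1b-deficient cTreg cells, against 18.7% of all bins called, 6.69% higher and 12% lower. With RLE size factors the split was 32 higher and 13 lower (71.1% higher against 61%), and with DESeq2 28 higher and 10 lower. The count rests on each library of the compared groups: it was 18 and 22 without the first or second Pggt1b-deficient cTreg library, and 19 and 12 without the first or second WT cTreg library. The lean to the higher side was lost without the first Pggt1b-deficient cTreg library (8 higher, 10 lower) and without the second WT cTreg library (6 in each direction). Thinned to the smallest library it was 16, 8 in each direction. At single sites 100 members were called, 29 higher and 71 lower, and 80 of the 140 bins had no called site. Called sites made up 1.54% of member sites tested, 0.447% higher and 1.09% lower, against 2.21% of all sites, 0.53% higher and 1.69% lower. The total of 100 was 28 and 41 without either Pggt1b-deficient cTreg library, 25 and 21 without either WT cTreg library, and 210 and 212 without either Pggt1b-deficient eTreg library. The lean to lower sites was not seen under 3 alternatives: the split was 144 higher and 120 lower with only the compared groups in the model, 113 higher and 117 lower without both Pggt1b-deficient eTreg libraries, and 49.5% higher with limma-voom.

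The largest fall in cTreg cells was at chr6:15600000-15799999, with 375 and 380 CPM in Pggt1b-deficient eTreg, 423 and 423 CPM in WT eTreg, 320 and 320 CPM in Pggt1b-deficient cTreg and 448 and 455 CPM in WT cTreg cells. All 4 groups were separated. In cTreg cells the bin fell by 0.50 ± 0.05 on the log2 scale (edgeR adjusted p = 7.89e-07), and 95.7% of its 46 tested sites had a negative fold change, although 5 sites were called lower and 0 higher. Its site chr6:15676489-15676783 had 22.4 and 27.9 CPM in Pggt1b-deficient eTreg, 35.3 and 35.8 CPM in WT eTreg, 15.0 and 12.8 CPM in Pggt1b-deficient cTreg and 24.7 and 25.8 CPM in WT cTreg cells.

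The mixed chr16 89.8 Mb bin also fell in Pggt1b-deficient cTreg cells, by 0.37 ± 0.05 (edgeR adjusted p = 2.99e-05), with 6 sites lower and 0 higher. All 6 lay between 26.2 and 49.4 kb from its start, the stretch that also held its 10 sites that rose in WT eTreg cells. The chr16 76.2 Mb bin, at 723 and 674 CPM in Pggt1b-deficient and 832 and 910 CPM in WT cTreg cells, fell by 0.32 ± 0.06 (edgeR adjusted p = 0.000561). Its site chr16:76337718-76338034 had 0.897 and 5.93 CPM in Pggt1b-deficient eTreg, 9.18 and 15.9 CPM in WT eTreg, 3.36 and 3.31 CPM in Pggt1b-deficient cTreg and 13.2 and 15.2 CPM in WT cTreg cells, lower in both Pggt1b-deficient groups. It fell by 2.08 ± 0.30 in cTreg cells (edgeR adjusted p = 2.83e-05).

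After the chr7 132.6 Mb bin, the largest rises in cTreg cells were at chr2:11000000-11199999, chr6:48600000-48799999 and chr3:60200000-60399999, each 0.29 on the log2 scale. The chr6 48.6 Mb bin had 420 and 440 CPM in Pggt1b-deficient eTreg, 326 and 306 CPM in WT eTreg, 574 and 549 CPM in Pggt1b-deficient cTreg and 482 and 438 CPM in WT cTreg cells, and was higher in Pggt1b-deficient eTreg cells too, by 0.44 ± 0.06. Its call in cTreg cells was lost without the second WT cTreg library (edgeR adjusted p = 0.0548). The chr3 60.2 Mb bin had 431 and 408 CPM in Pggt1b-deficient eTreg, 316 and 311 CPM in WT eTreg, 575 and 563 CPM in Pggt1b-deficient cTreg and 477 and 456 CPM in WT cTreg cells. Both bins were higher with Pggt1b loss in each subset and, in each genotype, lower in eTreg cells than in cTreg cells.

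The genotype difference in eTreg and in cTreg cells rests on separate libraries. Over the 140 bins the 2 differences correlated at r = 0.454 (Spearman 0.431), with the same sign in 91, again as a description. In bins with 10 to 39 sites the correlation was 0.556 (Spearman 0.472). Of the 36 bins higher in Pggt1b-deficient eTreg cells 10 (27.8%) were also higher in cTreg cells, or 40% of the 25 there. Of the 24 lower bins 8 (33.3%) were lower in both, or 50% of the 16 in cTreg cells. Over all 140 dense bins, 17.9% were higher and 11.4% lower in Pggt1b-deficient cTreg cells.

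Whether the effect of Pggt1b loss differed between the subsets was tested by the interaction, the effect in eTreg minus that in cTreg cells. It was called in 28 dense bins (20%), 14 positive and 14 negative, against 12% of all bins, 4.81% positive and 7.14% negative. In bins with 10 to 39 sites 17.1% were called. Left-out libraries changed this count to 13 and 9 without the first or second WT cTreg library, 13 and 17 without either WT eTreg library and 13 and 16 without either Pggt1b-deficient cTreg library, and the thinned libraries gave 12. The split into directions moved too: it was 11 positive and 1 negative in the thinned libraries, and 11 positive and 20 negative without the second Pggt1b-deficient eTreg library. At single sites 77 members were positive and 23 negative. Called sites made up 1.54% of member sites tested, 1.19% positive and 0.355% negative, close to the 1.51% of all sites, 0.957% positive and 0.555% negative. The total of 100 was 40 and 28 without either WT cTreg library, 49 and 59 without either WT eTreg library, 49 without the second Pggt1b-deficient cTreg library and 155 without the second Pggt1b-deficient eTreg library.

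The largest positive differences were 0.84 ± 0.11 at chr17 51.8 Mb (edgeR adjusted p = 0.00012), 0.55 ± 0.08 at chr7 65.8 Mb (edgeR adjusted p = 0.000122) and 0.53 ± 0.09 at chr6 142.8 Mb (edgeR adjusted p = 0.000613). In these 3 bins eTreg cells without Pggt1b had higher accessibility than WT eTreg cells, and in cTreg cells the log2 fold changes were 0.25, 0.00 and 0.04, of which the first was called. They kept their call under every alternative run. The next were chr6:134800000-134999999 and the chr16 76.2 Mb bin, at 0.43 each. The chr6 134.8 Mb bin had 404 and 368 CPM in Pggt1b-deficient eTreg, 320 and 325 CPM in WT eTreg, 390 and 358 CPM in Pggt1b-deficient cTreg and 413 and 429 CPM in WT cTreg cells: higher with Pggt1b loss in eTreg by 0.26 ± 0.06 and lower in cTreg cells by a log2 fold change of -0.17 ± 0.05, both called.

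The clearest single site of the interaction in the chr17 51.8 Mb bin was chr17:51945955-51946200, with 7.18 and 10.7 CPM in Pggt1b-deficient eTreg, 1.20 and 1.49 CPM in WT eTreg, 6.73 and 8.28 CPM in Pggt1b-deficient cTreg and 8.94 and 10.5 CPM in WT cTreg cells. WT eTreg cells were far below the other 3 groups, which lay within a narrow range, and the interaction was 3.04 ± 0.50 (edgeR adjusted p = 0.000395). At chr7:65873349-65873754 the values were 21.5 and 20.1 CPM in Pggt1b-deficient eTreg, 6.49 and 5.84 CPM in WT eTreg, 25.1 and 22.4 CPM in Pggt1b-deficient cTreg and 23.7 and 28.9 CPM in WT cTreg cells, an interaction of 1.91 ± 0.29 (edgeR adjusted p = 0.000145).

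The largest negative difference was at chr3:52000000-52199999, with 212 and 209 CPM in Pggt1b-deficient eTreg, 256 and 255 CPM in WT eTreg, 270 and 256 CPM in Pggt1b-deficient cTreg and 239 and 248 CPM in WT cTreg cells. Pggt1b-deficient eTreg cells were lowest and the other groups nearly level, and the interaction was -0.39 ± 0.09 (edgeR adjusted p = 0.00588). No single site of this bin was called for the interaction. Negative differences of -0.37 to -0.34 followed at chr1:69600000-69799999, chr13:22000000-22199999, chr16 23.2 Mb and chr7 17.4 Mb, and all 5 negative calls were lost under at least 1 alternative. The value at chr1 69.6 Mb ranged from -0.58 to -0.17 over the alternatives.

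Bins just inside and just outside the limit of 40 sites are given without a test. The 29 bins with 40 or 41 sites had a median of -0.09 on the log2 scale between WT eTreg and WT cTreg cells, with 4 higher and 13 lower, and the 29 bins with 38 or 39 sites had 0.00, with 5 higher and 7 lower. In Pggt1b-deficient cells the medians were -0.15 just inside the limit and -0.13 just outside it.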

How the data were processed

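ATAC-seq was measured in 8 libraries, and the deposited table holds whole-number counts per site and library, which the authors made without normalization as far as the file shows. Per the submitters' processing notes, the tools included MACS2 2.1.1, bedtools, SAMtools, Picard 2.9.4 and Trimmomatic 0.36, and the build was mm9 (NCBIM37). Not given in the sources used here were the aligner, the peak settings, any shift of reads to the transposase cut and the unit counted, reads or fragments. Even counts of 1 to 10 made up 66.1% to 77.4% of such counts, so many counts come in pairs. Site starts were used as given, and whether they count from 0 or 1 is not stated.

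The bins, lists and tests were chosen with earlier results of these data known. Bins were counted over all sites, and sites over 800 bp were then dropped. Sites (75352 after edgeR's filterByExpr) and bin sums (6817) were tested with edgeR 4.0.16 (R 4.3.3), TMM scaling and a quasi-likelihood fit over all 4 groups. P-values were Benjamini-Hochberg adjusted over all sites or bins, with calls under 0.05. Standard errors are the log2 fold change over the root of F. Shares of counts carry no p-value. Named bins were the 5 largest called changes in each direction and comparison without overlap between groups (the overlap did not count for the interaction), the 5 with most sites, the 5 with the largest share of sites called in one direction and the 5 most mixed. Named sites were the largest called changes in those bins with a mean of at least 20 counts and no overlap. The dense bin next to chr1:60800000-60999999 was named after its values were seen. Same-numbered libraries did not deviate together (correlations -0.0164 to 0.057), so no pairing was used. The scripts were tested on simulated data. Alternatives included DESeq2 1.42.0 and limma 3.58.1.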

Additional observations from a re-analysis of the deposited data

Results flagged for a closer look

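A difference between eTreg and cTreg cells in the effect of Pggt1b loss was called by edgeR's interaction test in 28 dense bins, and the 5 largest in each direction are given. The difference, in log2 fold change of eTreg minus that of cTreg cells, was 0.84 at chr17:51800000-51999999, 0.55 at chr7:65800000-65999999 and 0.53 at chr6:142800000-142999999. It was 0.43 at chr6:134800000-134999999 and 0.43 at chr16:76200000-76399999. Negative differences were -0.39 at chr3:52000000-52199999, -0.37 at chr1:69600000-69799999 and -0.36 at chr13:22000000-22199999. They were -0.36 at chr16:23200000-23399999 and -0.34 at chr7:17400000-17599999. The 5 positive calls held under all 15 alternatives, and the 5 negative ones did not. The call at chr1:69600000-69799999 was lost in 6 alternatives, each with one library left out: either WT cTreg library, either WT eTreg library, the first Pggt1b-deficient cTreg or the first Pggt1b-deficient eTreg library. Its value ranged from -0.58 to -0.17. At chr13:22000000-22199999 the call was lost without either WT cTreg library, without the second WT eTreg library and after thinning. It was lost after thinning at chr3:52000000-52199999, after thinning or without the second WT cTreg library at chr16:23200000-23399999, and under these or without the first WT eTreg library at chr7:17400000-17599999.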

How the results depend on the processing

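Of 202 alternative values for the counts of calls and the shares of counts, 52 were classed as moved and 150 were not. Those 150 were not all close to the reported value. The genotype difference in share was 0.168 points, and 0.018 without the first WT eTreg library. Called dense bins between genotypes in cTreg cells were 41, and 60 with only the compared groups in the model. In eTreg cells the split of 36 higher and 24 lower became 27 and 28 without the second Pggt1b-deficient eTreg library. Of 192 results on single bins and sites, 91 held under every alternative run and the rest were lost under at least 1. Among these 192 results 0 changed direction. Called dense bins were classed as moved under 2 alternatives beside left-out libraries. Limma-voom with group weights gave 62 for Pggt1b-deficient against WT cTreg cells. Thinning to the smallest library gave 16 in that comparison and 12 for the interaction. Called member sites moved more. With DESeq2 they were 1281 between WT subsets, 340 between Pggt1b-deficient subsets, 54 between the genotypes in cTreg cells and 63 for the interaction. With every 2 counts taken as 1 they were 286 between Pggt1b-deficient subsets, 203 between genotypes in cTreg and 449 in eTreg cells. With only the compared groups in the model the same 3 comparisons gave 217, 264 and 394, and with limma-voom 180, 204 and 374. Thinned libraries gave 495 between WT subsets, 177 between Pggt1b-deficient subsets, 11 between genotypes in cTreg, 264 in eTreg cells and 11 for the interaction. Without both Pggt1b-deficient eTreg libraries, an alternative chosen after seeing the data, the count in cTreg cells was 230.

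With any one library left out, called dense bins ranged over 75 to 93 between WT subsets, 58 to 83 between Pggt1b-deficient subsets, 42 to 56 between genotypes in eTreg, 12 to 49 in cTreg cells and 9 to 31 for the interaction. Called member sites ranged over 1162 to 2345, 243 to 560, 376 to 651, 21 to 212 and 28 to 155 in the same order. The share of counts differed between eTreg and cTreg cells by -0.852 to -0.728 points and between the genotypes by 0.018 to 0.329 points. The cause of these moves was not tested. The replicate block gave 87, 82, 59, 39 and 27 dense bins and 1855, 477, 618, 96 and 92 member sites, so it changed no count by over 1.5 times, and the libraries share only a number. With all libraries thinned to the depth of the smallest, fewer member sites were called in each of the 5 comparisons.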
